A study of Mus musculus with 12 samples.

Results

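The loci described here carry names of small noncoding RNAs and were detected in captured sensory neurons. A name was included when it began with Snora, Snord, Scarna, mmu-mir- or Mir and a digit and its read counts summed to at least 60 over the 6 captured-neuron libraries. Of 44345 names in the count tables, 811 had such a name and 63 reached that sum. The captured-neuron counts themselves chose the loci, so their presence in captured neurons is a description and not a finding. Just inside the limit lay Mir876 and Scarna3a with 60 counts each and Mir691 with 61, and just outside lay Mir370 with 59, Mir344-2 with 58 and Scarna3b with 58.

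The libraries came from dorsal root ganglia (DRG, which hold the cell bodies of sensory neurons) of sciatic levels L4 to L6 of C57BL/6 mice aged 5 to 8 weeks. Mice had spent 10 days in environmental enrichment (EE, a cage richer in stimuli) or in standard housing (SH). The sample labels give no further treatment or allele. The whole DRG column names, unlike the captured ones, also hold the word Sham, which is not explained. Captured libraries (3 EE and 3 SH, 3 mice pooled in each) held neurons at least 30 µm across, cut by laser from 16 µm sections. Whole DRG libraries (3 EE and 3 SH) pooled the ganglia of 2 mice each.

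The 2 preparations also differed in RNA quality and in library kit. Captured RNA had an integrity number of 6 to 7, and 100 ng entered a RiboZero ScriptSeq kit, which removes ribosomal RNA and keeps transcripts without a poly(A) tail. For whole DRG the integrity number was above 7.5 and the RNA entered a TruSeq mRNA kit, which selects poly(A) tails. Cell capture, RNA quality, kit and whatever the word Sham stands for cannot be told apart in any comparison between the 2 preparations. The labels do not state that a group's libraries were drawn from different mice, and the p-values below therefore reflect library-to-library spread, part of which may be technical.

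Small nucleolar RNAs (snoRNAs) guide the chemical modification of other RNAs: C/D box snoRNAs guide methylation of riboses and H/ACA box snoRNAs guide conversion of uridine to pseudouridine. Small Cajal body RNAs (scaRNAs) do the same for the small nuclear RNAs of the splicing machinery. In mammals most of them are cut from introns of host genes. MicroRNAs (miRNAs) are cut from hairpins in longer primary transcripts by Drosha and then Dicer, and guide Argonaute proteins to messenger RNAs. None of these mature RNAs carries a poly(A) tail, and the mature miRNAs are much shorter than the fragments that either kit is built to sequence.

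The names did not always describe the locus. Through the deposited gene identifiers and symbols, 62 of the 63 names were matched to GENCODE vM21 (build GRCm38), 60 by identifier and 2 by symbol. Of the 9 names that began with mmu-mir-, 8 had the identifier of a long noncoding transcript and not of a hairpin. They include mmu-mir-137 (annotated as Gm26871), mmu-mir-29b-2 (A330023F24Rik, with 9354 bases of exon), mmu-mir-3078 (Mir124a-1hg, a host transcript of miR-124) and mmu-mir-3061 (9430098F02Rik). The label of small noncoding RNA therefore failed for these 8 rows and for Mir22hg and Mir17hg, which are named as host transcripts. The remaining loci were 39 miRNA hairpins, 6 scaRNAs, 5 H/ACA box snoRNAs, 2 C/D box snoRNAs and mmu-mir-706, for which no annotated gene was found. These classes were set by annotation after the values were known.

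The mature miRNAs of 38 of the 39 hairpins were found in RefSeq (GRCm38.p6), 68 sequences in all. They are shown for the 4 hairpins with the highest captured counts (Mir433, Mir30a, Mir379 and Mir27b), for Mir325, which had the highest log2 fold change with housing, and for hairpins that share a seed, bases 2 to 8 in capitals, which is the stretch that pairs with targets. Mir30a (chr1:23272274-23272295, plus strand, for the arm shown) and Mir384 (chrX:105344332-105344354, minus strand) carry the same seed on different chromosomes. Mir379 (chr12:109709102-109709123), Mir411 (chr12:109710225-109710246), Mir1197 (chr12:109712361-109712381), Mir758 (chr12:109712823-109712843), Mir453 (chr12:109735669-109735692) and Mir496 (annotated as Mir496a, chr12:109739132-109739152) lie on the plus strand of 1 cluster and form 3 further pairs by seed. The remaining arms lie at chr12:109709065-109709085 (the other arm of Mir379), chr12:109591781-109591802 (Mir433), chr13:63300760-63300780 (Mir27b, whose hairpin overlaps an annotated exon of 2010111I01Rik) and, on the minus strand, chrX:105379105-105379126 (Mir325, whose hairpin overlaps no annotated exon of its host 5330434G04Rik).
mmu-miR-30a-5p: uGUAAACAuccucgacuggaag
mmu-miR-384-5p: uGUAAACAauuccuaggcaaugu
mmu-miR-379-3p: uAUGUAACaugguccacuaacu
mmu-miR-411-3p: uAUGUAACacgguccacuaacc
mmu-miR-1197-5p: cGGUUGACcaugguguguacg
mmu-miR-758-5p: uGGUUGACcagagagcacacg
mmu-miR-453: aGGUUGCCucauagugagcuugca
mmu-miR-496a-5p: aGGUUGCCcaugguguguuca
mmu-miR-379-5p: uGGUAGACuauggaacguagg
mmu-miR-433-3p: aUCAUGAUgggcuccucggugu
mmu-miR-27b-3p: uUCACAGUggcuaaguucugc
mmu-miR-325-3p: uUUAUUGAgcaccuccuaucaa
The 68 mature sequences held 64 distinct seeds, so apart from these 4 pairs no seed was shared between the hairpins.

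Some of the guide RNAs on which the results below turn are shown from GENCODE vM21 transcripts (GRCm38). On the minus strand are Scarna13 (chr12:105031075-105031349), Snord64 (chr7:59978808-59978874) and Snord107 (chr7:59980876-59980945). Snora28 (chr12:111540941-111541067) is on the plus strand. Capitals mark TGATGA (the C box, searched in the first 20 bases) and CTGA (the D box, searched in the last 15 bases) in the C/D box snoRNAs. In the other classes they mark the last ACA (searched in the last 8 bases) and the first TGAG, the Cajal body localisation motif of scaRNAs.
Scarna13: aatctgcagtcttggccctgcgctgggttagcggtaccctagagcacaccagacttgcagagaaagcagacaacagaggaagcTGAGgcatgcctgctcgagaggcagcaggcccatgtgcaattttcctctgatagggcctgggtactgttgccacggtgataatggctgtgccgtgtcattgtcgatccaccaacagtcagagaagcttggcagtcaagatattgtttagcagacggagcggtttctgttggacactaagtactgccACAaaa
Snora28: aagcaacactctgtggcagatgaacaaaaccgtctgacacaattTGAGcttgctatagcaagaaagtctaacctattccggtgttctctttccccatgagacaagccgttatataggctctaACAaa
Snord64: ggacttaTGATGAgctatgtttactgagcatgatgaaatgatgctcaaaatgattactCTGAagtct
Snord107: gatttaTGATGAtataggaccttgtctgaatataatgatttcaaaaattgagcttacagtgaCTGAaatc
Only the transcribed strand was searched. Both C/D box members held both boxes, which 71.4% (C box) and 93.9% (D box) of 98 annotated Snord transcripts hold. All 5 H/ACA members held ACA in the last 8 bases, as 95.2% of 42 annotated Snora transcripts do. Of the scaRNA members 2 of 6 held it, Scarna13 and Scarna3a, and of 9 annotated scaRNAs 44.4%. TGAG was present in 5 of 6 scaRNA members and in 88.9% of 9 annotated scaRNAs, but also in 4 of 5 H/ACA members and in 45.2% of annotated Snora transcripts.

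Captured libraries held 19296230 to 29434351 reads in genes and whole DRG libraries 11343579 to 17036481. The 63 loci took 0.0332 to 0.0345% of the reads in genes of each captured library and 0.00735 to 0.00998% in whole DRG, or 44288 and 7080 reads in all. The labelled tissue was present: neuron markers (Tubb3, Uchl1, Rbfox3, Isl1, Snap25 and Prph) summed to between 4229.9 and 5139 CPM (read counts scaled to the reads in genes of the library, per 1000000) in captured libraries and to between 7595 and 8170.3 CPM in whole DRG. Schwann cell markers summed to between 818 and 1143 CPM in captured libraries and to between 5815 and 8561 CPM in whole DRG. Markers of large-diameter neurons were not higher in captured libraries, and neither were those of all neurons. Kit and RNA quality also differed, so these sums cannot check the label of captured large neurons. Large-diameter neuron markers summed to between 7734 and 14071 CPM in captured libraries and to between 13000 and 15251 CPM in whole DRG, a range that overlaps. Nociceptor markers summed to between 2359.8 and 3524 CPM in captured libraries and to between 3168 and 3595 CPM in whole DRG. Satellite glia markers summed to between 2077 and 2946 CPM in captured libraries and to between 2527 and 3174 CPM in whole DRG. The captured SH replicate 2 stood apart with 525 CPM of skeletal muscle markers, and each other captured library had at most 5.32 CPM.

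In captured neurons nearly all of these loci stood at a much higher share of reads than in whole DRG. A level at least 4-fold higher was found for 54 of the 63 loci, against 5.40% of the 16240 names with the same count minimum in captured neurons. Whole DRG gave no read in any library at 23 of the 63 loci, against 1.07% of those names, and at most 3 reads in all at 38. For the limit of 3 reads no share over all names was taken. Those names share the count minimum but were not matched to the loci in level. Many of the loci lie near the minimum, where a count of 0 in whole DRG is more easily reached. On the scale of log2(CPM + 0.5) the median difference, captured minus whole DRG, was 1.47 in EE and 1.5 in SH, against -0.09 and -0.11 over all names with the count minimum. Because the loci were chosen on captured counts, part of this excess follows from the choice. The 17 names of the family that reached 60 counts in whole DRG had a median difference of -0.79, and names that reached it in either preparation had 1.40.

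**Figure D1:**
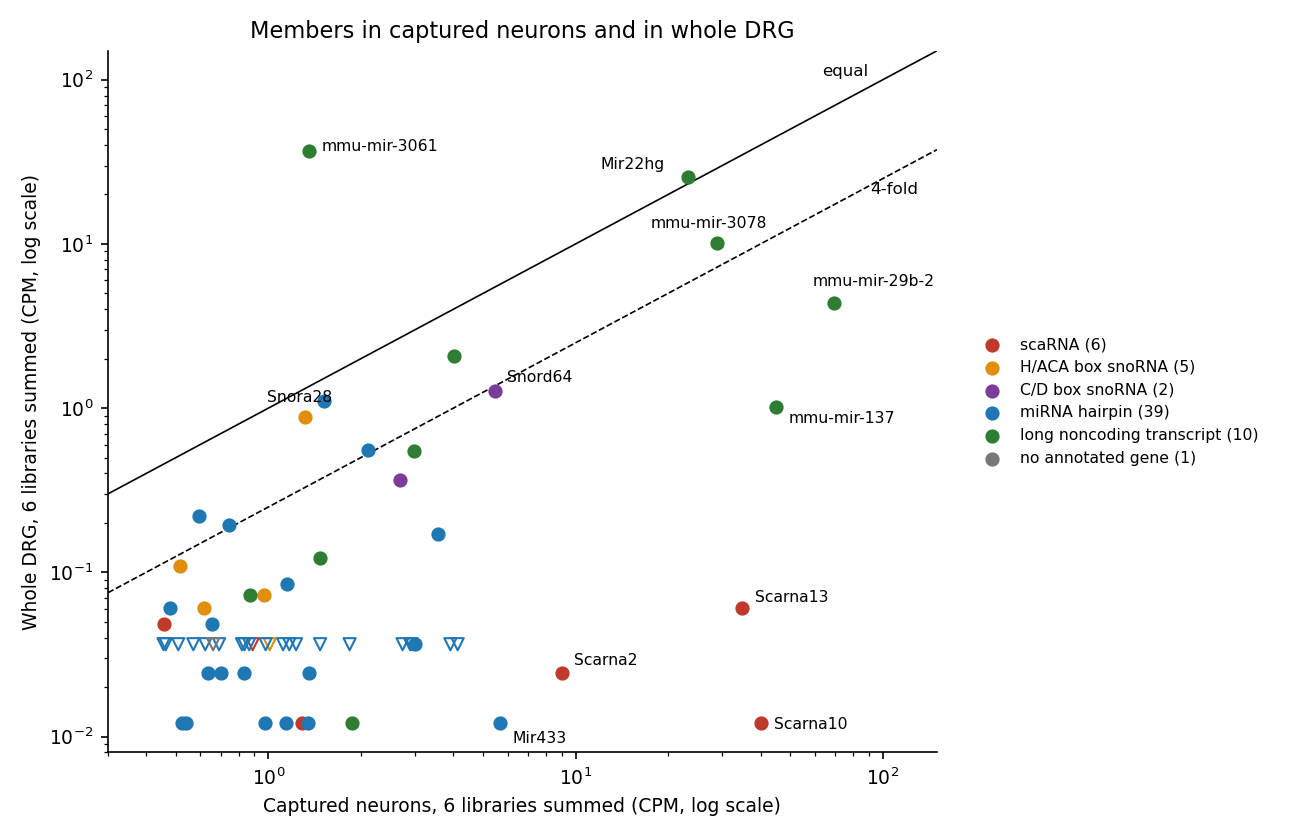
Level of each of the 63 loci in captured neurons (horizontal) and in whole DRG (vertical), in CPM over the 6 libraries of each preparation, on log scales. Filled points are loci with reads in whole DRG, and open triangles mark the 23 loci with none there, placed at the level of 3 counts; points below the dashed line are more than 4-fold higher in captured neurons, and mmu-mir-3061 and Mir22hg are the points above the solid line of equality.

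The scaRNAs showed the widest gap. All 6 were at least 4-fold higher in captured neurons, where they gave 11408 reads, against 13 reads in whole DRG. Scarna13 had 40.5, 39.3 and 31.7 CPM in captured EE libraries and 36.5, 28.6 and 30.4 CPM in captured SH libraries. In whole DRG it had 2, 1 and 0 reads in EE and 1, 0 and 1 in SH. Its level over the 6 libraries was 34.8 CPM in captured neurons and 0.0608 CPM in whole DRG, 573-fold higher with a counting interval of 245 to 1764 (exact, 95%, counting error only). No captured library came near the whole DRG level.

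Scarna10 had 40.2 CPM in captured neurons and 1 read in whole DRG, a ratio whose counting interval began at 592. Scarna2 had 9.0 CPM in captured neurons against 2 reads in whole DRG. Scarna6 had 1.28 CPM, Scarna17 0.888 CPM and Scarna3a 0.456 CPM in captured neurons. Per kilobase of the locus, which allows levels of different RNAs to be set side by side, Scarna13 stood at 127 CPM and Scarna10 at 124 CPM in captured neurons, and Scarna2 at 21.7 CPM.

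The snoRNAs differed less between the preparations. Snord64 had 5.45 CPM in captured neurons and 1.28 CPM in whole DRG, 4.27-fold higher (3.47 to 5.29). Snord107, a neighbour in the same host gene, had 2.67 CPM in captured neurons and 0.365 CPM in whole DRG, 7.33-fold higher (5.04 to 11). Snora28 was the H/ACA box snoRNA with the smallest gap, with 1.31 CPM in captured neurons and 0.888 CPM in whole DRG, 1.48-fold (1.12 to 1.97). Snora74a had 1.01 CPM in captured neurons and no read in whole DRG, at least 27.7-fold higher when 3 reads over the 6 whole DRG libraries are taken as the floor. Snora30, Snora23 and Snora2b lay between these, 13.2-fold, 10.1-fold and 4.72-fold higher. Taken as sums, the C/D box loci were 4.95-fold and the H/ACA box loci 3.91-fold higher in captured neurons.

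The miRNA hairpins gave 7604 reads in captured neurons and 218 in whole DRG, a 21.8-fold difference in CPM. Of the 39, 35 were at least 4-fold higher and 20 had no read in whole DRG. Mir433 was the most abundant by count, with 5.95, 5.84 and 5.81 CPM in captured EE libraries and 4.69, 6.42 and 5.03 CPM in captured SH libraries, and 1 read in all of whole DRG. Mir30a had 4.13 CPM in captured neurons and no read in whole DRG, at least 113-fold higher. Its seed partner Mir384 had 3.01 CPM and 3 reads in whole DRG. Mir379 was at least 107-fold higher, Mir432 at least 80.1-fold, Mir325 at least 79.3-fold and Mir127 at least 74.9-fold.

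Few hairpins held a measurable level in whole DRG. Mir27b had 3.55 CPM in captured neurons and 0.170 CPM in whole DRG, 20.9-fold higher (12.3 to 38.5). The 4 hairpins under 4-fold were Mir5125 (1.37-fold), Mir138-1 (2.71-fold), Mir466f-3 (3.77-fold) and Mir5133 (3.82-fold). Of the 63 loci, 42 are shorter than the 125 bases of a captured read, most hairpins among them, so a read counted there reached beyond the annotated locus or came from a shorter fragment. The counts therefore cannot tell a precursor from a longer transcript that passes through the hairpin, nor from the mature miRNA.

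The long noncoding transcripts took 53.1% of the reads of the 63 loci in captured neurons and 93.5% in whole DRG. The mmu-mir-137 row had 44.9 CPM in captured neurons and 1.02 CPM in whole DRG, 44.0-fold higher (35.5 to 55.2). The mmu-mir-29b-2 row had 69.1 CPM in captured neurons and 4.39 CPM in whole DRG, 15.7-fold higher (14.2 to 17.5). The mmu-mir-3078 row, a host transcript of the neuronal miR-124, had 28.8 CPM in captured neurons and 10.2 CPM in whole DRG, 2.83-fold higher. Mir17hg, the host transcript of the miR-17 cluster, was 5.44-fold higher in captured neurons.

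A pair of long transcripts did not follow the others. Mir22hg, the host transcript of miR-22, had 23.3 CPM in captured neurons and 25.5 CPM in whole DRG, 0.913-fold (0.863 to 0.965). The mmu-mir-3061 row had 1.36 CPM in captured neurons and 36.6 CPM in whole DRG, 0.0371-fold. It had between 35.4 and 41.3 CPM in whole EE libraries and between 30.5 and 39.5 CPM in whole SH libraries, and no captured library passed 1.66 CPM. It was the 1 locus of 63 that was at least 4-fold lower in captured neurons, against 5.30% of names with the count minimum.

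Host transcripts were measured in the same libraries. Of the 52 matched short loci, 34 lie inside a gene on the same strand, and for 33 of them the host was found in the count tables, 27 distinct hosts in all. Whether the authors' counting used strand is not given in the sources used here, so reads of overlapping and antisense genes cannot be told apart. In 30 of 33 pairs the locus exceeded its host in captured over whole DRG fold, counted by the lower end of the interval or by the bound of the locus. The median fold of the 27 hosts was 1.58, and 2 of them were at least 4-fold higher in captured neurons. The loci were chosen for high captured counts and the hosts were not.

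The host of Scarna10, Ncapd2 (a condensin subunit), had 8.78 CPM in captured neurons and 8.84 CPM in whole DRG, 0.994-fold. Snhg10, the host of Scarna13, had 0.919 CPM in captured neurons and 1.30 CPM in whole DRG, 0.706-fold. Snrpn, the imprinted host of Snord64 and Snord107, had 464 CPM in captured neurons and 621 CPM in whole DRG, 0.747-fold, while both of its snoRNAs were over 4-fold higher. Eif5, a translation initiation factor gene that contains Snora28, was 0.680-fold. Snord64, Snord107, Snora28 and Scarna10 each overlap an annotated exon of their host, so the part of host reads in their counts was not tested.

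For some hairpins the host itself was far higher in captured neurons. Mirg, a long transcript that contains Mir496, Mir154 and Mir453, had 56.1 CPM in captured neurons and 4.50 CPM in whole DRG, 12.5-fold higher. The transcript 2810055G20Rik, which contains Mir99a and Mir125b-2, was 19.4-fold higher, more than the 13.4-fold of Mir99a. The lower end of the interval of Mir154 (7.48-fold) also lay under the fold of Mirg. Mir5125 at 1.37-fold lay under its host Srrm2 at 3.06-fold.

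**Figure D2:**
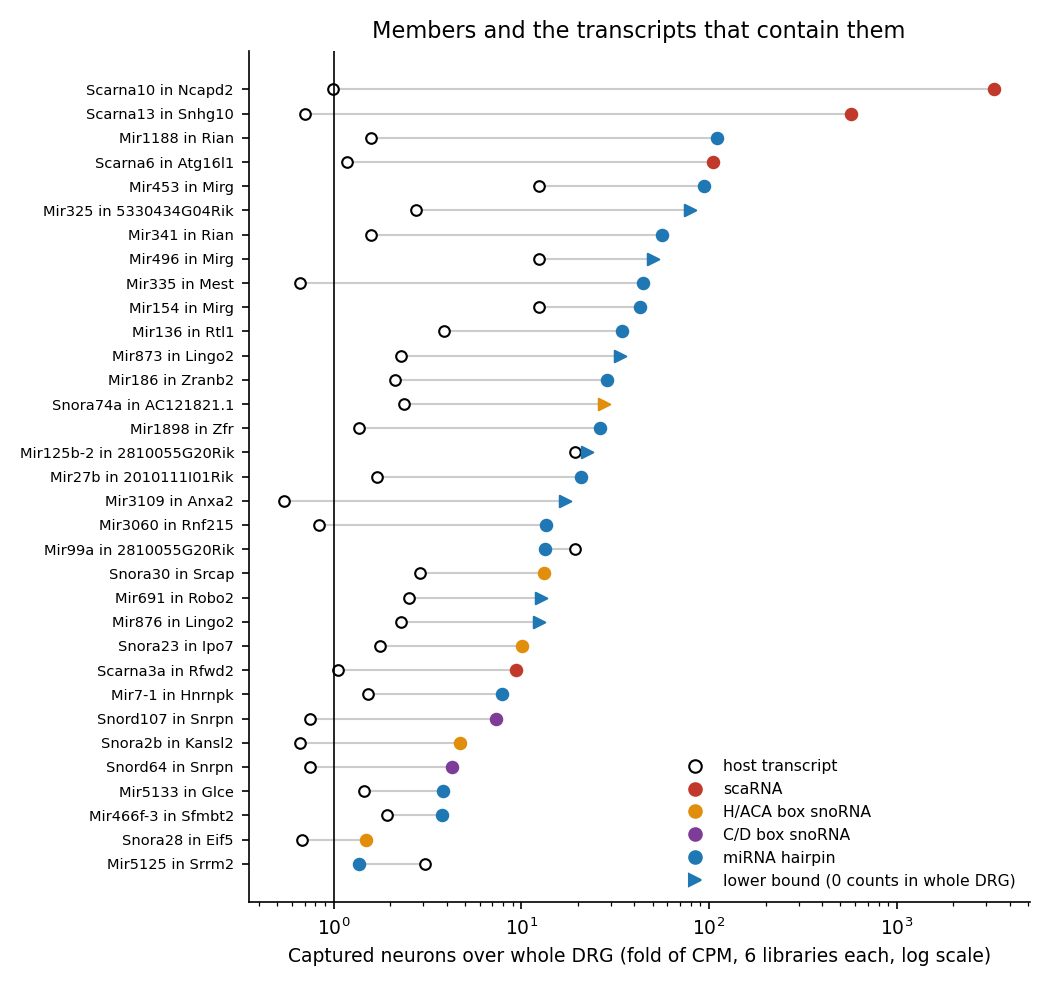
Fold of CPM in captured neurons over whole DRG for 33 short loci (coloured) and the same-strand transcript that contains each (open circles), on a log scale; triangles are lower bounds for loci with no read in whole DRG. In 30 pairs the lower end of the interval of the locus (intervals are not drawn) or its bound exceeds the fold of the host. The exceptions are Mir99a, Mir154 and Mir5125, of which Mir154 is plotted to the right of its host by its ratio of 43.1. The hosts spread from 0.545-fold to 19.4-fold.

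Most of the hairpins came from 1 region. The imprinted Dlk1-Dio3 domain of chromosome 12, whose noncoding RNAs are transcribed from the maternal copy, held 20 of the 39 hairpins (51.3%) between positions 109586080 and 109739197, a stretch of 153 kb. The ends of this stretch are those of the outermost of the 20, which are all the hairpins of the 39 on chromosome 12. The stretch was thus drawn from the loci themselves, so its shares are a description. Of the 654 names in the count tables that matched an annotated miRNA gene, 41 (6.27%) lie in it, and of all 2202 annotated miRNA genes 2.36%. The 20 hairpins gave 4142 reads in captured neurons, 54.5% of all reads of the 39 hairpins, and 9 reads in whole DRG, where 13 of the 20 had none. Of the 19 hairpins elsewhere, 7 had none in whole DRG.

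Within the cluster the hairpins were uneven. Levels are given here per kilobase of the locus, with the limit that most loci are shorter than a read. Mir433 stood at 45.7 CPM per kilobase in captured neurons, and Mir127 and Mir432 at 39.0 each. These 3 lie opposite Rtl1, an imprinted gene that antisense miRNAs of this region are known to silence. Rtl1 itself had 3.04 CPM in captured neurons and 0.790 CPM in whole DRG. Mir379, the first of the downstream group, stood at 59.2 CPM per kilobase, its neighbour Mir411 at 18, and Mir540 at the upstream end at 7.59. The row named Mir136 has the identifier of Mir3071 on the opposite strand, so its 110 reads cannot be given to either. The long noncoding transcripts of the domain also stood higher in captured neurons, Meg3 5.03-fold and Rian 1.58-fold.

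**Figure D3:**
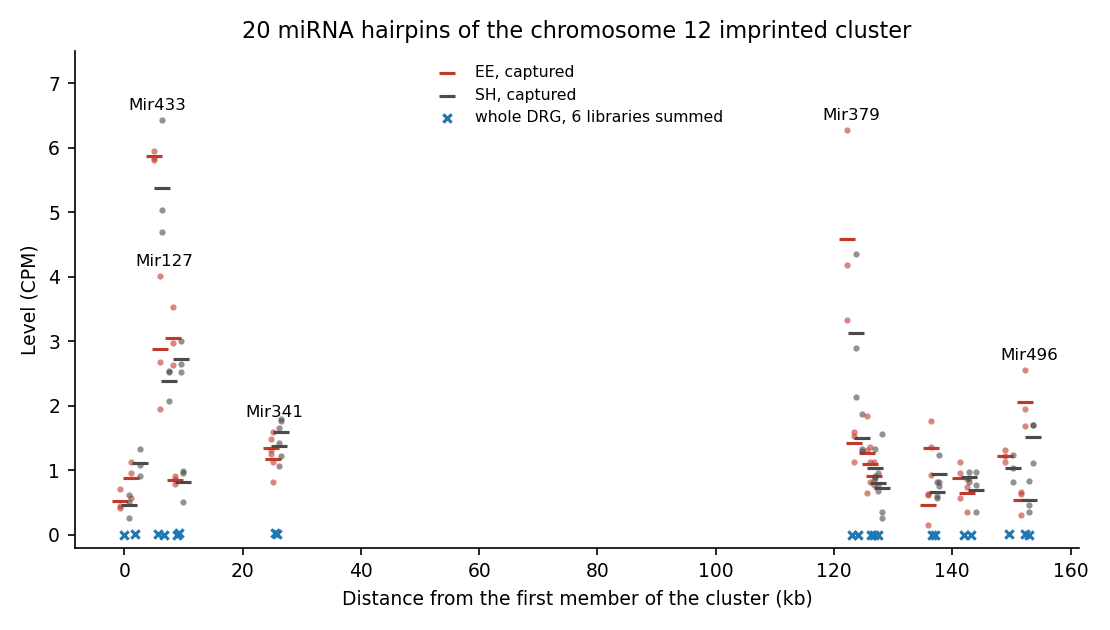
Levels of the 20 hairpins of the chromosome 12 cluster in CPM against distance along the cluster in kb. Small points are captured libraries (EE red, SH grey), bars their group means, and crosses whole DRG over its 6 libraries; Mir433 near the start and Mir379 in the downstream group have the highest CPM (not scaled to length), and all crosses lie at or near 0.

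Housing was compared within captured neurons with edgeR's quasi-likelihood test over all genes, EE minus SH, with Benjamini-Hochberg adjustment. Of the 63 loci 62 passed the filter on low counts, and none reached an adjusted p under 0.05, against 0.0185% (3) of the 16186 genes tested. An unadjusted p under 0.05 was found for 7 of the 62 loci (11.3%), against 15.9% of all genes tested. DESeq2 gave an adjusted p to 6 of the loci and called 2 of these 6, against 5.44% of genes with an adjusted p. The other loci were left without one by its filter on low means. Of the loci 2 were called with no filter (2.48% of genes), 2 in lane 3 alone (4.06%) and 1 without EE replicate 1 (3.64%). The median log2 fold change of the 62 loci was -0.043, against -0.00059 over all genes tested, and 27 were positive. Groups did not overlap for 10 loci (16.1%, against 20.9% of all genes tested). Every EE library lay above every SH library for 1 of them (1.61%, against 9.82%) and below for 9 (14.5%, against 11.1%).

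**Figure D4:**
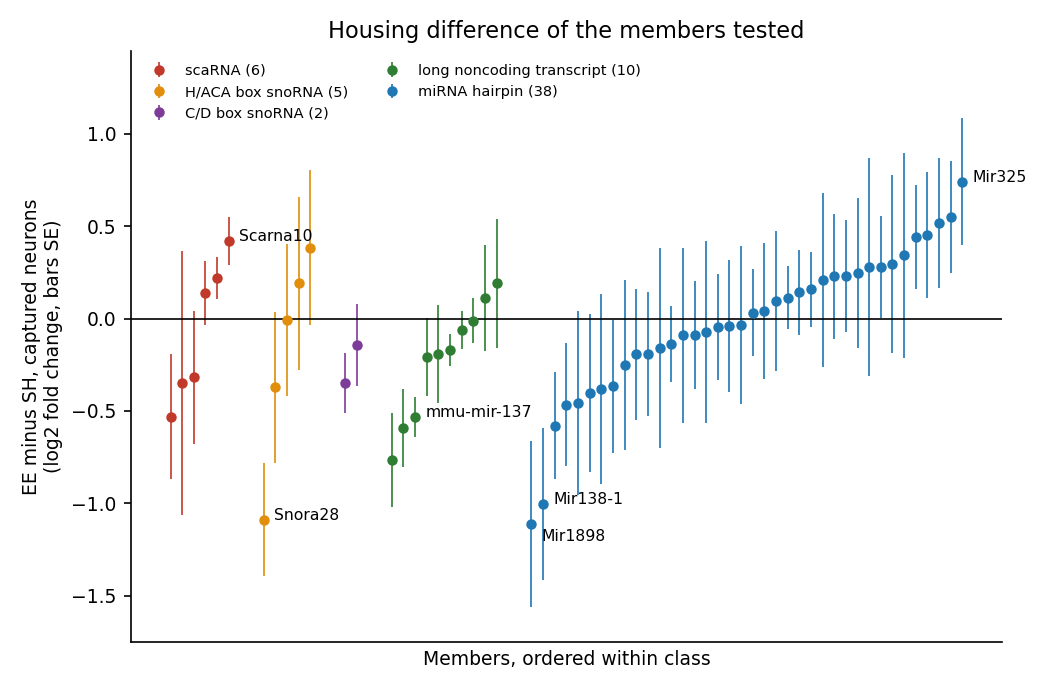
Log2 fold change, EE minus SH in captured neurons, of the loci tested in 5 classes (points) with its standard error (bars), ordered within each class. Hairpins spread evenly about 0, with Mir1898 and Mir138-1 lowest and Mir325 highest, and 8 of the 10 long noncoding transcripts lie below 0.

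The mmu-mir-137 row had the smallest p of the 62. It had 33.1, 40.3 and 39.3 CPM in EE libraries and 49.1, 60.0 and 52.8 CPM in SH libraries. Every EE library lay below every SH library. The mean was 37.6 ± 3.92 CPM in EE and 54.0 ± 5.55 CPM in SH (SD, n = 3 each), a log2 fold change of -0.53 (SE 0.11, adjusted p = 0.0977 by edgeR's quasi-likelihood test). DESeq2 gave an adjusted p of 0.00136 at a log2 fold change of -0.53. Without EE replicate 1, the value was -0.44 with an adjusted p of 0.0425 by edgeR. The adjusted p was as high as 0.378 when another library was left out. Without SH replicate 2, the library with the muscle markers, the log2 fold change was -0.43 (adjusted p = 0.330 by edgeR).

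Other long transcripts also had lower values in EE, none of them past the threshold. Mir17hg had 2.51, 2.61 and 2.13 CPM in EE and 3.06, 3.53 and 4.30 CPM in SH, a log2 fold change of -0.59 (SE 0.21, adjusted p = 0.217 by edgeR). The mmu-mir-1906-2 row, which stands for 2 gene identifiers of which 1 was matched, had 1.12, 1.48 and 1.73 CPM in EE and 2.34, 2.2 and 2.75 CPM in SH, a log2 fold change of -0.77 (adjusted p = 0.199 by edgeR). Neither passed the threshold, although the groups did not overlap. The 10 long transcripts together, mmu-mir-137 included, had 157, 170.2 and 179 CPM in EE and 180.2, 193 and 202 CPM in SH, again without overlap. Once the mmu-mir-137 row is taken out, the sums of EE and SH libraries overlap. The share of reads outside annotated features was 28.0, 33.8 and 30.9% in captured EE libraries and 32.1, 36.3 and 34.5% in captured SH libraries, and its part in these values was not tested.

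**Figure D5:**
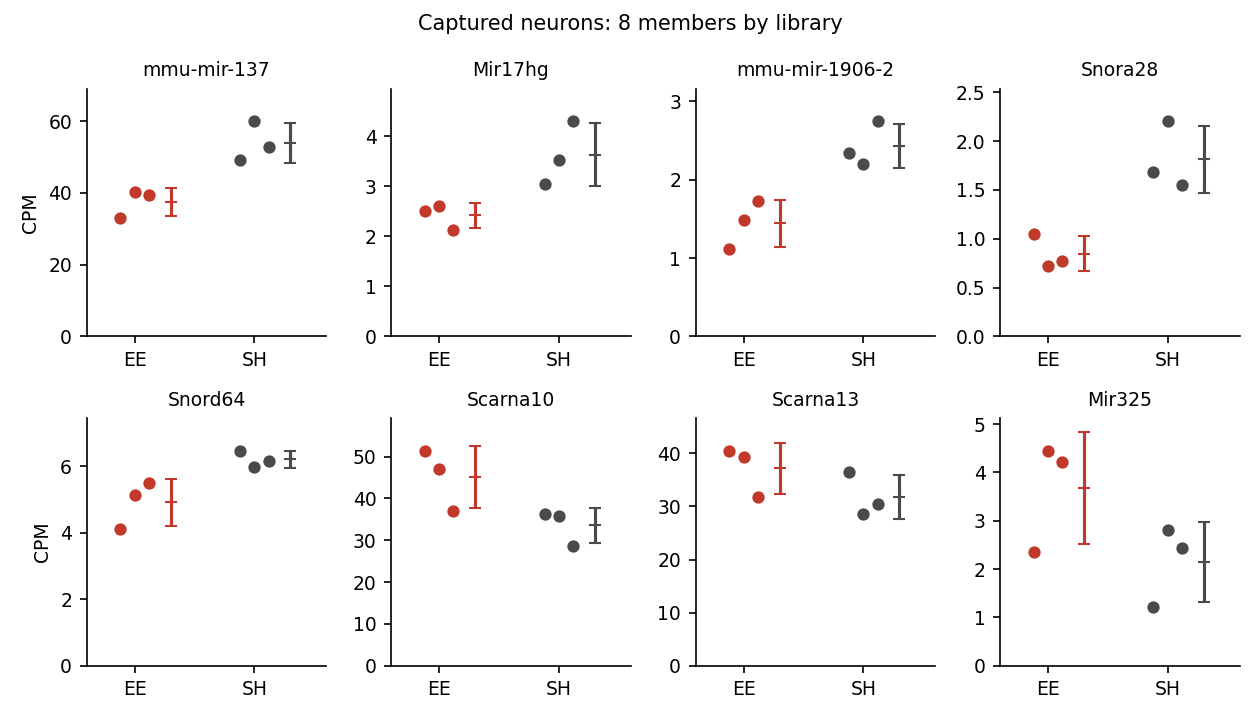
CPM of 8 loci in each captured library (points), EE left and SH right in each panel, with the group mean and SD (bars, n = 3). The panels for mmu-mir-137, Mir17hg, mmu-mir-1906-2, Snora28 and Snord64 show all EE libraries below all SH libraries, that for Scarna10 shows the reverse, and those for Scarna13 and Mir325 overlap.

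Among the scaRNAs, Scarna10 was the 1 locus of the 62 with every EE library above every SH library. It had 51.4, 47.0 and 37.0 CPM in EE and 36.2, 35.7 and 28.7 CPM in SH, with means of 45.1 ± 7.42 and 33.6 ± 4.2 CPM (SD, n = 3 each). The lowest EE library exceeded the highest SH library by less than 1 CPM. The log2 fold change was 0.42 (SE 0.13, adjusted p = 0.177 by edgeR, 0.0384 by DESeq2). Its host Ncapd2 had a log2 fold change of -0.08. Scarna13 had a log2 fold change of 0.22 (adjusted p = 0.371 by edgeR) and its host Snhg10 0.58, both with an adjusted p above the threshold. Scarna17, Scarna6 and Scarna3a had negative values, so 3 of the 6 scaRNAs were positive and 3 negative.

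Snora28 showed the largest difference among the snoRNAs. It had 31, 14 and 17 reads in EE and 33, 48 and 30 in SH, or 0.847 ± 0.180 CPM in EE and 1.81 ± 0.343 CPM in SH (SD, n = 3 each). The groups did not overlap once scaled to library size. The log2 fold change was -1.09 (SE 0.30, adjusted p = 0.153 by edgeR), and that of its host Eif5 was -0.06. In whole DRG, Snora28 had 14, 11 and 16 reads in EE and 10, 16 and 6 in SH, a log2 fold change of 0.68 (adjusted p = 1.000 by edgeR), which was 1.16 without SH replicate 2 and 0.40 without SH replicate 3.

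Tested directly, the difference of the housing effect on Snora28, captured minus whole DRG, was -1.77 on the log2 scale (SE 0.52, unadjusted p = 0.00349, adjusted p = 0.239 by edgeR's interaction contrast). Of the 59 loci in this fit, 21 had no read in whole DRG, so their difference could not be estimated and they could not pass. Among the 38 with a read there Snora28 had the smallest p, and none had an adjusted p under 0.05, against 0% of 17412 genes. An unadjusted p under 0.05 was found for 3 of these 38 (7.89%), against 11.8% of genes with a read in whole DRG (11.7% of all genes in the fit), and most of the 38 had few reads there. The others were Mir466f-3 with -1.42 (adjusted p = 0.333) and Snora30, which had no read in whole EE libraries and 3, 1 and 2 reads in whole SH libraries. Mir466f-3 belongs to a family of near-identical hairpins in introns of Sfmbt2, so its reads are uncertain. In captured neurons Sfmbt2 itself had a log2 fold change of 0.80 and Mir466f-3 -0.58 (adjusted p = 0.366 by edgeR). The housing groups overlapped for both. Sfmbt2 had 2.14, 5.79 and 5.45 CPM in EE and 2.24, 2.16 and 3.16 CPM in SH, with EE replicate 1 below every SH library.

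The C/D box snoRNAs of Snrpn and their host had values of opposite sign. Snord64 had 4.11, 5.12 and 5.49 CPM in EE and 6.47, 5.96 and 6.17 CPM in SH, with every EE library below every SH library and a log2 fold change of -0.35 (adjusted p = 0.335 by edgeR). Snrpn had 518, 487 and 475 CPM in EE and 467, 397 and 418 CPM in SH, with every EE library above every SH library and a log2 fold change of 0.20 (adjusted p = 0.200 by edgeR). Neither passed the threshold. Snord107 had 2.14, 3.17 and 2.50 CPM in EE and 3.16, 2.52 and 2.85 CPM in SH, which overlap.

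Of the 38 hairpins tested, 19 had a positive and 19 a negative log2 fold change. The lowest were Mir1898 at -1.11 (adjusted p = 0.265 by edgeR), with 17, 7 and 6 reads in EE and 15, 14 and 25 in SH, and Mir138-1 at -1.01 (adjusted p = 0.270 by edgeR), with 14, 6 and 9 reads in EE and 19, 12 and 18 in SH. Mir325 had the highest value, 0.74 (SE 0.34, adjusted p = 0.326 by edgeR), with 2.34, 4.45 and 4.22 CPM in EE and 1.22, 2.80 and 2.44 CPM in SH, and these overlap. Its value was 0.46 without SH replicate 1 (adjusted p = 0.510 by edgeR) and 1.26 in lane 3 alone (adjusted p = 0.0427 by edgeR). Its row, like those of Mir466f-3, Mir5125, Mir544 and mmu-mir-1906-2, stands for more than 1 gene identifier. Standard errors of the hairpins reached 0.59, and the adjusted p-values do not show that levels were equal.

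The chromosome 12 cluster summed to 33.6, 31.5 and 34.1 CPM in EE and to 25.6, 32.1 and 30.3 CPM in SH. EE replicate 2 lay below SH replicate 2, so the groups overlap. The log2 fold change was positive for 12 of its 20 hairpins (median 0.14), with Mir379 at 0.55 (adjusted p = 0.408 by edgeR) and Mir496 at 0.44 (adjusted p = 0.479), and for 7 of the 18 hairpins tested elsewhere (median -0.15). Single libraries moved both: Mir379 had 0.25 without EE replicate 3, 0.33 without SH replicate 1 and 0.85 without SH replicate 3, and Mir496 had 0.25 without EE replicate 1 and 0.26 without SH replicate 1. The hairpins elsewhere summed to 25.5, 26.5 and 26.3 CPM in EE and to 27.0, 25.4 and 27.5 CPM in SH. Loci of a cluster may share precursor transcripts, and 6 of the 20 lie inside an annotated host on the same strand. The 20 values cannot be taken as independent.

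In whole DRG 9 of the loci passed the filter, and none had an adjusted p under 0.05 by edgeR's quasi-likelihood test, against 0.00631% (1) of 15845 genes. None had an unadjusted p under 0.05, against 2.90% of genes, and DESeq2 called none of them. The mmu-mir-1839 row had 2.56, 2.16 and 2.28 CPM in EE and 1.76, 1.96 and 1.89 CPM in SH, every EE library above every SH library, with a log2 fold change of 0.33 (adjusted p = 1.000 by edgeR). It was the 1 locus of 9 whose groups did not overlap, against 7.60% of genes, 2.69% with EE above SH and 4.92% with EE below SH. In captured neurons the same row had a log2 fold change of -0.21. The other 54 loci have no housing test in whole DRG alone.

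Genes that make or use these RNAs were counted from lists chosen with earlier results of these data known. By edgeR none was called in either direction in either preparation, against 0.0185% of genes in captured neurons and 0.00631% in whole DRG, among 8 snoRNP core proteins, 15 snoRNP assembly and Cajal body genes, 18 genes of miRNA processing and action, 9 snoRNA host transcripts (of 11 found in the tables) and 3 other small structured RNAs (1 tested in whole DRG). With calls that rare over all genes, a count of 0 is no result about these lists. In captured neurons an unadjusted p under 0.05 was found for 0 of 8, 1 of 15, 5 of 18, 2 of 9 and 0 of 3, against 15.9% of all genes. DESeq2 called 1 of 17 miRNA genes and 1 of 4 snoRNA hosts with an adjusted p, against 5.44% of all genes with one. In whole DRG an unadjusted p under 0.05 was found for 2 of the 18 and for none in the other lists, against 2.90% of genes. DESeq2 called none there. The 18 miRNA genes summed to between 2273 and 2353 CPM in captured EE and to between 2422 and 2464 CPM in captured SH, without overlap. The sums of every other list in this paragraph overlapped between the housing groups. Among single genes tested 20.9% did not overlap, and no such share was taken for lists. In captured neurons 4 of the 18 miRNA genes had a positive log2 fold change (median -0.10), the largest difference being Ago2, an Argonaute protein, at -0.39 (adjusted p = 0.130 by edgeR). The snoRNA host Snhg11 had -0.42 (adjusted p = 0.0898 by edgeR).

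Of 9 other listed structured RNAs found in the data, 3 passed the filter in captured neurons, and these stood far higher there than in whole DRG. Over the list the median log2(CPM + 0.5) was -0.73 to -0.22 in captured libraries and -1 to -0.84 in whole DRG. Most of the list thus lay near the floor in both preparations. Rn7sk, which holds the transcription elongation factor P-TEFb inactive, had 1751 ± 496 CPM in captured EE and 1377 ± 276 CPM in captured SH, against 1.5 ± 0.403 CPM in whole EE and 1.35 ± 0.103 CPM in whole SH (SD, n = 3 each). Rpph1, the RNA of RNase P, had 25242 reads in captured neurons and 11 in whole DRG, and Rmrp, the RNA of RNase MRP, 1539 and 6. Their log2 fold changes, EE minus SH in captured neurons, were 0.34, 0.38 and 0.39, none with an adjusted p under 0.05.

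Among cell type markers in captured neurons, the summed level did not overlap between the housing groups for 3 of 10 sets, those of all neurons, large-diameter neurons and satellite glia. Of single genes tested, 20.9% did not overlap, and no such share was taken for sets. Neuron markers summed to between 5116 and 5139 CPM in EE and to between 4229.9 and 4612 CPM in SH. Markers of large-diameter neurons (Nefh, Nefm, Nefl, Ntrk3, Pvalb, Scn1a, Vamp1 and Ldhb) summed to between 10388 and 14071 CPM in EE and to between 7734 and 9978 CPM in SH, and 7 of 8 had a positive log2 fold change. Nociceptor markers summed to between 2359.8 and 3074 CPM in EE and to between 3007 and 3524 CPM in SH, and 1 of 8 was positive. None of these 16 genes was called by edgeR, against 0.0185% of all genes tested. An unadjusted p under 0.05 was found for 7 and 6 of each 8, against 15.9% of all genes tested. DESeq2 called 5 of each 8, against 5.44% of genes with an adjusted p. Satellite glia markers summed to between 2674 and 2946 CPM in EE and to between 2077 and 2436 CPM in SH. A positive log2 fold change was found for 4 of these 6, with a median of 0.09. Of these markers 1 of 6 was called (Fabp7, log2 fold change 0.80, adjusted p = 0.0319 by edgeR), against 0.0185% of all genes tested. The part of cell makeup in the differences of the 63 loci was not tested, and fewer cells of a type cannot be told apart from less RNA per cell.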

How the data were processed

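The authors deposited read counts (whole numbers, not normalized) in a table for each preparation and FPKM values for whole DRG. The counts were used for every test and level, and the whole DRG FPKM table for its gene identifiers. A further table of captured neurons was not used. Per the submitters' processing notes, HTSeq 0.6.0, TopHat2 2.0.12 and mm10 were used, with no role stated. Summary rows without a gene were excluded from totals; reads outside features made up 28.0 to 47.6% of a library. Whole DRG column names also hold an unexplained word, Sham, and were assigned through housing and replicate number.

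The 63 loci and the gene lists were chosen with earlier results of these data known. Named are, per class, the most abundant loci, those with the smallest p in each comparison and direction, those called in any fit, the largest and smallest differences between preparations, those at the count limit, and their hosts. CPM are counts per 1000000 reads in genes. Each preparation was fitted in edgeR 4.0.16 (R 4.3.3) with filterByExpr, TMM scaling and quasi-likelihood tests, p-values being adjusted over all genes tested (Benjamini-Hochberg, threshold 0.05). An interaction contrast over all 12 libraries tested whether housing effects differed. DESeq2 1.42.0 was an alternative, and code was tested on simulated counts. Captured against whole DRG levels were described with no test; ratios have exact 95% counting intervals, and loci at 0 a floor of 3 counts over 6 libraries. Other alternatives were no filter, library size alone, DESeq2 size factors, a replicate block, lane 3 alone, leaving out each library, and other pseudocounts, scalings and count minimums.

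Per the labels, whole DRG libraries of the same number shared a lane (4, 5 or 6), so the numbers pair them by lane. Correlations of their within-group deviations were 0.33, 0.15 and 0.10, and those of libraries with unlike numbers ran from -0.33 to 0.19. Captured EE libraries ran in lanes 1, 3 and 3 and captured SH libraries in lanes 3, 2 and 3, so numbers do not pair them. No libraries were duplicates. Depth per library was 11343579 to 29434351 reads in genes, and intervals cover counting error only.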

Additional observations from a re-analysis of the deposited data

Results flagged for a closer look

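Whole DRG held reads at names of the same family that the count minimum in captured neurons left out. Summed over the 6 whole DRG libraries and set beside the sum over the 6 captured libraries, the counts were 7 in captured neurons and 1670 in whole DRG for Mir5105, and 1 and 242 for Mir762. They were 6 and 98 for Mir3082, 18 and 84 for Snord91a, and 37 and 81 for Mir3098. For mmu-mir-1900 they were 26 and 77, for Mir425 32 and 66, and for Mir3074-1 5 and 62. Mir5105 averaged 20.7 ± 6.78 CPM in whole EE and 20.2 ± 6.33 CPM in whole SH (SD, n = 3 each).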

How the results depend on the processing

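The 54 loci at least 4-fold higher in captured neurons numbered 54 to 56 under TMM scaling, a floor of 6 counts and leaving out each library, alternatives chosen after seeing the data. The median captured minus whole DRG log2 difference of 1.49 became 2.93 with 0.1 CPM added, 0.97 with 1 CPM added, 1.58 with TMM factors, -0.79 for names chosen on whole DRG counts and 1.40 for names chosen in either table, and 1.47 to 1.54 leaving out each library. A minimum of 30 counts gave 109 loci and 120 counts gave 39. In captured neurons the 3 genes called became 522 with DESeq2, 902 with no filter, 658 in lane 3 alone, and 0 to 602 leaving out each library, the most without EE replicate 1. Loci called were 2 with DESeq2 (of 6 with an adjusted p) and 2 with no filter (mmu-mir-137 and Scarna10), 2 in lane 3 alone (mmu-mir-137 and Mir325), and 0 to 1 leaving out each library; the loci's median was 0.033 in lane 3 alone and -0.071 to 0.010 leaving out each library. In whole DRG 1 gene called became 0 with library size alone, 48 with no filter and 0 to 2 leaving out each library, and the loci's median ran from -0.10 to 0.22 leaving out each library. For the difference, 0 genes became 145 with DESeq2, 457 with no filter and 0 to 233 leaving out each library. With the replicate block, 32 genes were called in whole DRG and 0 in captured neurons, and the pairing changed no call among the loci. The causes were not tested, other than that leaving out libraries leaves fewer samples. Of the 39 hairpins 18 averaged under 20 reads per captured library, with a median standard error of 0.47, against 0.30 for the others, so small differences were least detectable there.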
